A study of Mus musculus with 12 samples.

Results

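The peaks of genes that carried many m6A peaks were examined in C17.2, an established mouse neural stem cell (NSC) line. A gene was included when its symbol had 3 or more peaks in each of the 6 deposited mRNA peak lists, and 561 of the 10030 genes with a peak in any list met this rule. They made up 14.1% of the 3966 genes called in all 6 lists, and held 19362 of the 83673 listed mRNA peaks. The number of peaks per gene in each library is therefore what chose these genes, and it is given below as a description with no test.

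The cells were wild type and were untreated (control) or went through hypoxia/reoxygenation (H/R), in which they spent 12 h at 5% oxygen and afterwards 48 h in normal oxygen as a model of ischemia and reperfusion. Methylated RNA immunoprecipitation sequencing (MeRIP-seq) compares RNA fragments pulled down with an antibody against N6-methyladenosine (m6A) with the input RNA, and 12 samples in 4 groups of 3 (control and H/R, immunoprecipitate and input) gave 3 control and 3 H/R peak lists with the letters A, B and C, and values of the libraries are given in the order of these letters. C17.2 is 1 immortalised line grown in serum, so the lists describe this line and not NSCs of an animal. Nothing in the labels said that replicates were separate cultures, so p-values between libraries measure only the spread of these samples, and that spread may be technical. Of 8 NSC marker genes, Nes, Sox2, Notch1 and Sox9 had a peak in all 6 lists, while Vim, Pax6 and Fabp7 had none, and no endothelial marker had one. A peak list gives no level of expression, so a gene without a peak may still be expressed.

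m6A is written on adenosines of nascent mRNA by the METTL3-METTL14 complex, mostly within the DRACH consensus (any base but C, a purine, the bases AC, any base but G), and is read by YTH domain proteins that direct splicing, translation and decay of the mRNA. In mammalian mRNA it is known to gather near stop codons and in unusually long internal exons. In neural stem cells the mark is known to govern self-renewal and the timing of differentiation.

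The sequences of 5 coding exons are shown because they are what a peak of these genes usually was, namely a region with the ends of 1 whole exon. They belong to 5 of the 6 genes with the highest mean peak number, and each is the coding region called in all 6 lists with the highest lowest fold enrichment, among regions of at most 300 bases with the same ends in every list. Coordinates and letters are those of GRCm38 (mm10) from RefSeq, 5' to 3' on the transcript strand, and capitals mark runs of 6 or more purines (A or G).
Ktn1 exon 9, chr14:47686256-47686343, plus strand: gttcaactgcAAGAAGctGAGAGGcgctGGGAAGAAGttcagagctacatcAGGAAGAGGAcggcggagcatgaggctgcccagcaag
Dst exon 38, chr1:34199292-34199558, plus strand: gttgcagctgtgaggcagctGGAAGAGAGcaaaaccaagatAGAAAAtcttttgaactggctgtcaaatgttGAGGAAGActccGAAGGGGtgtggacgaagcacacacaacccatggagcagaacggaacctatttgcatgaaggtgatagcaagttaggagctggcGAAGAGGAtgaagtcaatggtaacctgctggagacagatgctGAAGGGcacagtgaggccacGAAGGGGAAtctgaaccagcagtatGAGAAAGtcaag
Pcnt exon 22, chr10:76401332-76401535, minus strand: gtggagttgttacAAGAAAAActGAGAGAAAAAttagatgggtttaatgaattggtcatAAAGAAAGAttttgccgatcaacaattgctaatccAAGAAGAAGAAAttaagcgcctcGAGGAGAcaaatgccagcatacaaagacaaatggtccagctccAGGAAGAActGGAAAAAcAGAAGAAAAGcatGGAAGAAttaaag
Cep290 exon 15, chr10:100508664-100508826, plus strand: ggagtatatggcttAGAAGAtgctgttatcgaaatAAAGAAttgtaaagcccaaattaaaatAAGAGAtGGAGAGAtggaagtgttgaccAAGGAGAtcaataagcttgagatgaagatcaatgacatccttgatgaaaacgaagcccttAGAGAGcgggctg
Akap9 exon 26, chr5:4038529-4038705, plus strand: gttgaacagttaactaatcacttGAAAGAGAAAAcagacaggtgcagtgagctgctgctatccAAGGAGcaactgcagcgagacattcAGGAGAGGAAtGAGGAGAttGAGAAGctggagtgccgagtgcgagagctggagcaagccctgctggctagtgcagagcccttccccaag
The purine content of these exons was 67.0% in Ktn1, 65.9% in Dst, 67.6% in Pcnt, 65.6% in Cep290 and 62.1% in Akap9. Such high values were not general, since the lower quartile over all internal coding exons called in all 6 lists was 55.4%. DRACH matches varied in number, with 7 in the Dst exon, 5 in each of the Pcnt and Akap9 exons, 2 in the Cep290 exon and 0 in the Ktn1 exon. The fold enrichment of the Ktn1 exon was 30.6, 42.0 and 73.8 in the control lists and 24.6, 22.0 and 20.6 in the H/R lists, so that all control values lay above all H/R values. The Dst exon stood at 31.3, 43.5 and 39.1 and then 20.4, 30.4 and 20.4, also without overlap, and the Cep290 exon at 41.4, 60.9 and 35.8 in the control and 20.9, 35.8 and 16.6 in the H/R lists, where the highest H/R value was just below the lowest control value. The groups overlapped in the Pcnt and Akap9 exons. The Pcnt exon stood at 21.6, 61.1 and 28.6 in the control and 16.1, 23.8 and 17.1 in the H/R lists. The Akap9 exon stood at 26.1, 59.5 and 48.3 and then 41.8, 36.9 and 31.2. Median fold enrichment over all peaks of the included genes was 25.1, 36.5 and 30 in the control lists. In the H/R lists this median was 11.6, 18.5 and 12.6. In the other genes called in all 6 lists it was 24.0, 35.3 and 28.2 and then 10.9, 17.0 and 11.7. The groups did not overlap in either set, so such a separation was not particular to the printed exons.

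For comparison, 2 coding exons of similar length in the same transcripts that held no peak in any of the 6 lists are shown.
Ktn1 exon 31, chr14:47716874-47716960, plus strand: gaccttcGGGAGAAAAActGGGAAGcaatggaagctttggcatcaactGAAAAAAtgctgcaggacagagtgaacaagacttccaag
Dst exon 37, chr1:34198518-34198751, plus strand: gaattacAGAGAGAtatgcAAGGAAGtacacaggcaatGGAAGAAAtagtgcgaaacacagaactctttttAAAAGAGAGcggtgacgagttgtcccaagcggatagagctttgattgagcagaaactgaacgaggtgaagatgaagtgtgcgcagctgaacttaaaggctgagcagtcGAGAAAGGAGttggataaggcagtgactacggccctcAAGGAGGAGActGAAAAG
The Ktn1 exon without a peak had 65.5% purines and 4 DRACH matches, and the Dst exon without a peak had 67.5% purines and 6 DRACH matches. Purine content was thus close within each pair. DRACH matches were fewer in the Ktn1 exon with a peak than in the one without (0 against 4), and more in that of Dst (7 against 6). Both exons without a peak were richer in purines than the median of exons called in no list, which was 61.25% in Ktn1 and 56.4% in Dst. The difference between exons with and without peaks that is described further below was one of means over many exons.

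Genes with the highest means are described first. Ktn1 (chr14:47663756-47736564, plus strand, 42 exons), which encodes kinectin, a membrane protein of the endoplasmic reticulum that binds kinesin, had the most peaks of the 561 genes on average. It held 20, 16 and 18 peaks in the control lists and 19, 21 and 22 peaks in the H/R lists, and the groups overlapped. Dst (chr1:34011595-34308656, plus strand, 93 exons), which encodes dystonin, a large linker of cytoskeletal networks, held 13, 9 and 11 peaks in the control lists and 28, 20 and 27 in the H/R lists. The lowest H/R count of Dst was above its highest control count. Rock1, a protein kinase that acts on the actin cytoskeleton, was among the genes with the most peaks but changed little, with 17, 15 and 13 peaks in the control lists and 16, 16 and 15 in the H/R lists. Cgnl1, which encodes the junction protein paracingulin, held 14, 14 and 12 peaks in the control lists and 15, 14 and 15 in the H/R lists. Erc1, a scaffold of the cell cortex, held 14, 15 and 11 and then 17, 15 and 16 peaks. Smarca2, the BRM ATPase of SWI/SNF chromatin remodelers, held 13, 12 and 11 control peaks and 17, 14 and 14 H/R peaks, and Tpr, a protein of the nuclear pore basket, 14, 7 and 9 control peaks and 16, 18 and 17 H/R peaks. The H/R counts lay above all control counts in Smarca2 and Tpr and overlapped with them in Rock1, Cgnl1 and Erc1. Tnrc18 held 13, 11 and 9 control peaks and 15, 16 and 17 H/R peaks, again without overlap.

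**Figure D1:**
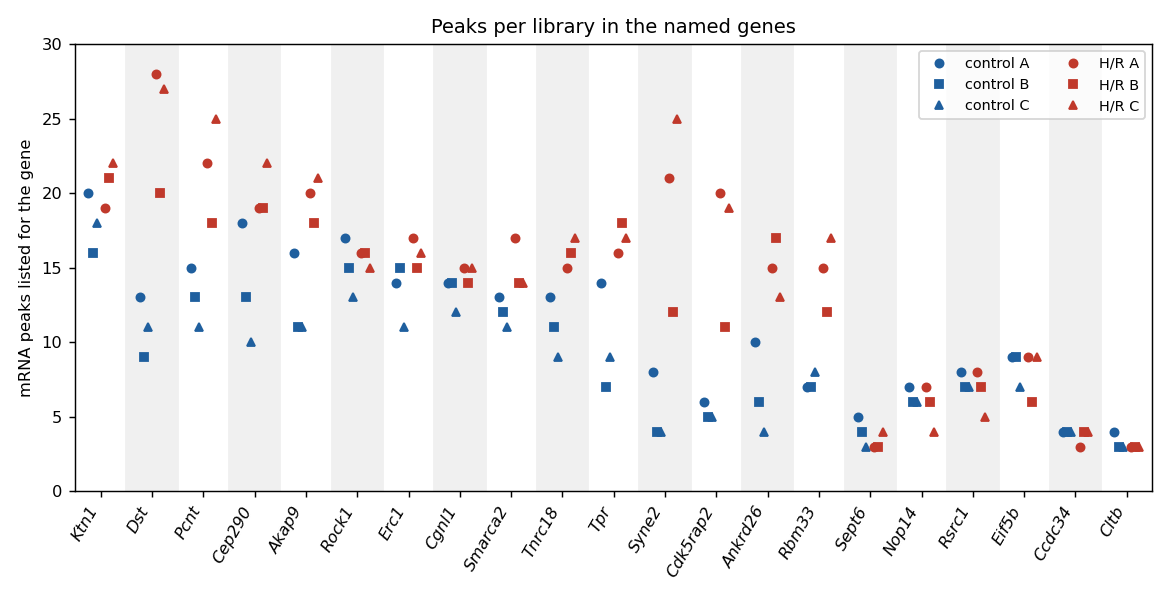
Number of listed mRNA peaks (vertical axis, from 0) in each of the 6 libraries for 21 genes, those with the highest mean counts and those with the largest and smallest differences between groups; blue symbols are control and red symbols H/R lists, with a symbol for each letter. Dst reached 28 peaks in H/R A against at most 13 in a control list, whereas the 6 genes at the right differed little.

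Over all 561 genes, 4.80 ± 0.581 peaks per gene were listed in the control group and 6.71 ± 0.514 under H/R (SD, n = 3 lists each). The other genes called in all 6 lists went from 1.54 ± 0.224 to 2.43 ± 0.394 peaks (SD, n = 3 each), and the median ratio of H/R to control means was 1.31 over the 561 genes and 1.33 over all genes called in all lists. In 182 of the 561 genes (32.4%), every H/R count was above every control count, beside 18.9% of all genes called in all lists. The reverse order was found in 0 of them, beside 0.0756% of all genes called in all lists. The H/R mean was higher in 495 genes, equal in 58 and lower in 8, and 48 genes had the same count in every list. One of these was Acbd3, a scaffold protein of the Golgi, with 7 peaks in each of the 6 lists. The genes just inside the threshold, 280 with a lowest count of 3, had 4.33 peaks per list on average, and the 771 just outside it, with a lowest count of 2, had 3.01.

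The largest differences among genes whose lists did not overlap were those of Dst, at 14.0 peaks, and of Syne2 (chr12:75818318-76110928, plus strand, 116 exons), which encodes nesprin-2, a link between the nuclear envelope and the cytoskeleton. Syne2 held 8, 4 and 4 peaks in the control lists and 21, 12 and 25 peaks in the H/R lists, a difference of 14.0. Cdk5rap2, a centrosomal protein that recruits gamma-tubulin, held 6, 5 and 5 control peaks and 20, 11 and 19 H/R peaks, a difference of 11.3. In each of these genes H/R B held the fewest H/R peaks, and H/R B was also the shortest H/R list. Pcnt, which encodes the pericentriolar scaffold pericentrin, differed by 8.67 peaks (15, 13 and 11 against 22, 18 and 25), and Ankrd26, an ankyrin repeat protein, by 8.33 (10, 6 and 4 against 15, 17 and 13). Rbm33, an RNA-binding protein, differed by 7.33 peaks (7, 7 and 8 against 15, 12 and 17) and Akap9, an anchor of protein kinase A at the centrosome and Golgi, by 7.0 (16, 11 and 11 against 20, 18 and 21).

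At the other end, Sept6, a septin GTPase, held 5, 4 and 3 control peaks and 3, 3 and 4 H/R peaks. Nop14, a factor of small ribosomal subunit assembly, held 7, 6 and 6 control peaks and 7, 6 and 4 H/R peaks, and Rsrc1, a splicing-related protein, 8, 7 and 7 and then 8, 7 and 5. These 3 genes shared the most negative difference, -0.667 peaks, with overlapping lists. Eif5b, the initiation factor that joins the ribosomal subunits, differed by -0.333 peaks (9, 9 and 7 against 9, 6 and 9), as did Ccdc34 and Cltb, a clathrin light chain.

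The lists differed in length, with 7863 to 12180 mRNA peaks in control lists and 13954 to 22038 in H/R lists, and peaks of the 561 genes made up 25.1%, 28.8% and 31.0% of the control lists and 20.6%, 24.7% and 18.1% of the H/R lists. When each list was shortened to its 7863 peaks of highest p score (10 times the -log10 of the MACS p), the same 561 genes held 4.22 ± 0.138 peaks in the control group and 4.11 ± 0.221 under H/R (SD, n = 3 each). The difference thus went from 1.91 to -0.115 peaks per gene. The control C list had 7863 peaks and was not cut, and the 561 genes had been chosen in the full lists. With genes chosen anew in the shortened lists (365 genes), the difference was 0.107. With the 561 genes kept, the H/R mean was higher in 188 genes and lower in 245. Every H/R count lay above every control count in 26 genes (4.63%) and below every control count in 30 (5.35%). Of all 3100 genes called in all shortened lists, 2.39% lay above and 1.45% below. Of Dst, 12, 8 and 11 control peaks and 15, 14 and 15 H/R peaks were left, and the groups still did not overlap. Syne2 had 2, 3 and 4 control peaks and 3, 6 and 4 H/R peaks left, and Cdk5rap2 2, 5 and 5 and 3, 6 and 1, and both overlapped. Cep290, a protein of the ciliary transition zone with 18, 13 and 10 control peaks and 19, 19 and 22 H/R peaks in the full lists, turned to 11, 12 and 10 control peaks and 5, 8 and 1 H/R peaks. How far read depth sets the list lengths was not tested, since the lists give no read numbers.

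**Figure D2:**
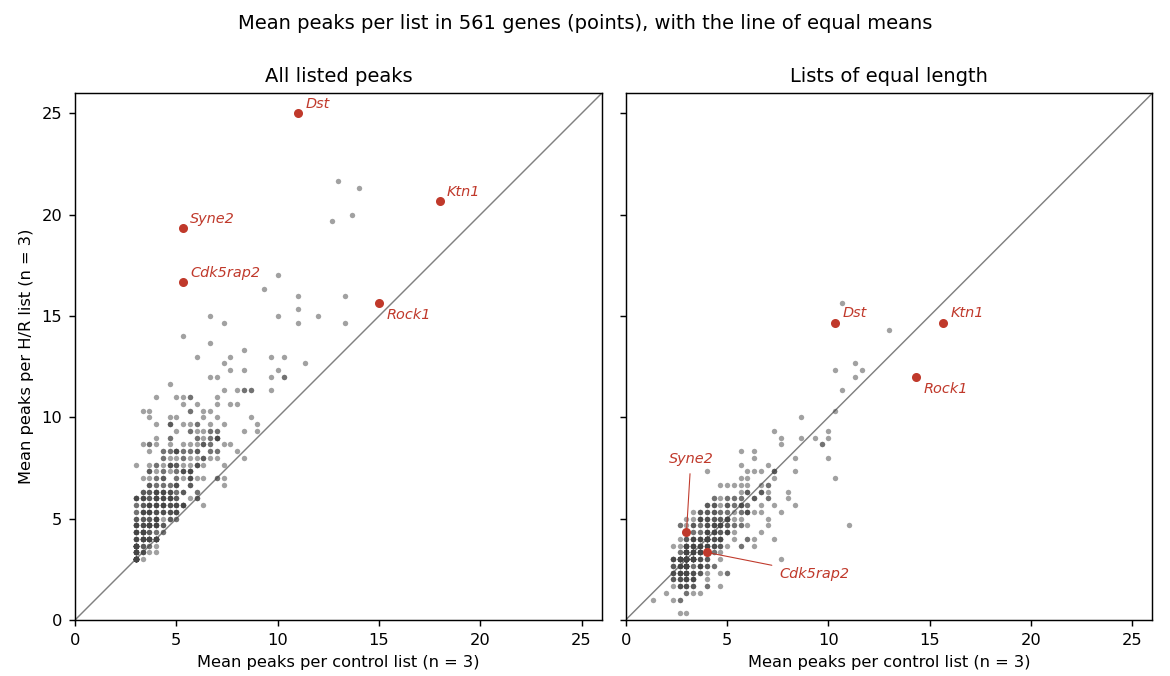
Mean number of peaks per H/R list (vertical axis) against mean number per control list (horizontal axis) for each of the 561 genes, with all listed peaks (left) and with every list shortened to its 7863 peaks of highest p score (right); the line marks equal means and 5 genes are named in red. With all peaks 495 genes lay above the line, and with lists of equal length 188 did.

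A listed peak in these genes usually had the ends of an exon. The authors screened exonic peaks by an in-house program that is not described further, and its part in these ends, in the lengths of peaks and in peaks that touch was not tested. Of the peaks on the gene models, 80.0%, 79.7% and 80.0% in the control lists and 80.6%, 82.3% and 78.3% in the H/R lists began and ended exactly at the ends of 1 exon, against 60.4% to 68.4% in the other genes called in all lists. Under 1% in each list reached over more than 1 exon. Each peak had a MACS identifier of its own, and in 5 of the 6 lists no 2 peaks of a gene shared both p score and fold enrichment, while 2 peaks of 1 gene did in H/R C. Of the exons with a peak, between 0.0298% and 0.493% held 2 or more, so that the peak number of a gene was close to its number of called exons. Of the 9005 internal coding exons of the 561 genes, 24.6%, 20.4% and 19.4% held a peak in the control lists and 31.9%, 28.6% and 32.8% in the H/R lists. In Ktn1, 12 of 39 such exons held a peak in all 6 lists and 16 in no list. In Rock1, 13 of 31 were called in all lists and 15 in none, and 100% of its peaks were whole exons. In Syne2, 1 of 113 was called in all lists and 87 in none.

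Called exons often had a called neighbour. The next internal coding exon also held a peak after 43.1% to 50.1% of called exons in the control lists and after 53.0% to 56.4% in the H/R lists. After an exon without a peak, these shares were 12.9% to 15.2% and 17.6% to 20.8%. These shares pool the exons of all 561 genes, which differed in the share of exons called. Genes with many called exons raise the first shares wherever their peaks lie, so placement within a gene was not tested. Of all neighbouring pairs of peaks on a spliced transcript, 53.7% to 58.7% touched end to end in the control lists and 60.6% to 62.7% in the H/R lists. When touching peaks were joined into 1 block, a step chosen after seeing the data, 2.60 ± 0.149 blocks per gene were left in the control group and 3.11 ± 0.191 under H/R (SD, n = 3 each). Only 183 of the 561 genes had 3 or more blocks in every list, and 161 had at most 1 block in some list. Cgnl1 is the plainest case, with 14, 13 and 7 peaks in its largest block in the control lists and 15, 12 and 15 in the H/R lists. Sept6 formed 1 block in all 6 lists. Syne2, in contrast, held 7, 4 and 4 blocks in the control lists and 13, 11 and 15 in the H/R lists, and Cdk5rap2 4, 3 and 3 and then 9, 8 and 11. Rbm33 went the other way, from 4, 4 and 3 blocks to 2, 3 and 2, while its largest block grew from 3, 3 and 5 peaks to 13, 6 and 16.

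**Figure D3:**
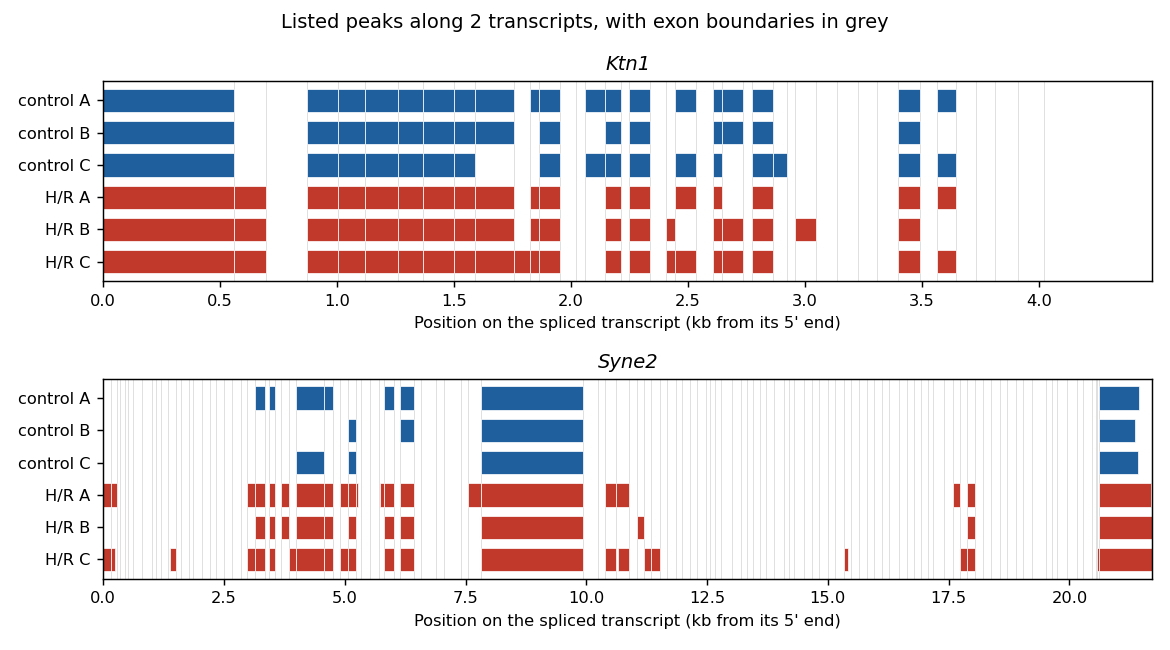
Listed peaks (filled bars) of Ktn1 and Syne2 in the 6 libraries along the spliced transcript, in kb from its 5' end (horizontal axis), with exon boundaries as grey lines. In Ktn1 the bars ended at exon boundaries and filled a run of neighbouring exons in all 6 lists (peaks off the transcript model are not drawn), and in Syne2 the H/R lists showed further short bars beside those shared with the control lists.

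The median over genes of the distance between neighbouring peak centres was 444, 513.5 and 515 exonic bases in the control lists and 321, 363 and 342 in the H/R lists, and every H/R list was below every control list. The means were 491 ± 40.6 and 342 ± 20.8 bases (SD, n = 3 each, exact permutation p = 0.1, two-sided, the smallest that 3 against 3 lists allow). The lists with smaller distances were also those with more peaks per gene. More peaks in a transcript shorten these distances by construction, and peak number chose the genes, so this p does not speak to spacing apart from peak number. With lists of equal length the difference was -12.25 bases (exact permutation p = 0.9). How much of the distances peak number sets was not tested. Neighbouring peaks more than 1000 bases apart made up 20.9% to 24.8% of pairs in the control lists and 15.5% to 17.4% in the H/R lists. In Ktn1 the median distance averaged 129 bases in both groups, and in Syne2 it averaged 2367 bases in the control lists and 421 in the H/R lists.

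Peaks that overlapped by at least 1 base between lists were merged into 4611 regions of the 561 genes. Of these, 2065 (44.8%) were called in all 6 lists, against 35.0% of the regions of the other genes called in all lists. The rule asked for 3 or more peaks in every list from the 561 genes and only 1 from the others, so a higher share is partly built in. Of those 2065 regions, 1691 (81.9%) had 1 peak per list with identical ends in all 6 lists, again the ends of exons in most cases. Ktn1 had 14 regions called in all lists, Rock1 13, Erc1 and Smarca2 11 each and Cgnl1 10. Only 473 of the 561 genes had 3 or more such regions. Regions that every H/R list held but no control list did numbered 225 (4.88%), in 168 genes, beside 6.21% of all merged regions, and 1 region showed the reverse. Leaving out control A gave 467 of them and leaving out H/R B gave 454. Dst had 5 of the 225, and Pcnt, Tnrc18, Cep164, Sos1, Smc5, Prdm2 and Ppfibp1 had 3 each. At equal list length 27 such regions (0.874%) were found, beside 1.4% of all merged regions, and 39 in the reverse direction (1.26%), beside 1.27% of all.

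The peaks of the 561 genes differed from those of the other genes called in all 6 lists. Their median length was 199, 213 and 209 bases in the control lists and 182.5, 185 and 183 in the H/R lists, while in the other genes it was 635, 746 and 745 and then 374, 488 and 303. The difference averaged -353 bases and was below 0 in 6 of 6 libraries (exact sign-flip permutation p = 0.03125 over the libraries, two-sided, the smallest that 6 allow). Peak centres lay in coding sequence in 77.0% to 79.0% of peaks of the 561 genes and in 49.4% to 57.8% of the others, 25.0 percentage points more on average. The 3'UTR held 13.6 percentage points fewer and the window of 100 bases around the start codon 4.11 fewer, each in 6 of 6 libraries (exact sign-flip p = 0.03125 each, as after Benjamini-Hochberg adjustment over 8 measures). The window around the stop codon, not among these measures, held 1.94% of peaks in the control and 2.05% in the H/R group. In the other genes it held 6.70% and 5.37%. Since the same genes were compared in every library and were chosen on their peak number, these p-values speak to the stability over libraries and not to other sets of genes. Peaks mostly had the ends of an exon, so a gene with 3 or more peaks needs several called exons. Few of these can hold a start codon, a stop codon or the 3'UTR, so the class differences are partly built in by the rule. How much of them, and of the shorter peaks, follows from the rule was not tested. Fold enrichment was higher by 1.18 (with lists of equal length 0.719, exact sign-flip p = 0.125), GC content lower by 2.80 percentage points and the density of DRACH matches higher by 1.27 per kb, likewise in 6 of 6 libraries (exact sign-flip p = 0.03125 each).

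Purine content was added after seeing the sequences. The median share of A and G in peaks of the 561 genes was 58.0%, 58.2% and 58.6% in the control lists and 57.6%, 58.2% and 57.4% in the H/R lists, against 52.3% to 52.9% in the other genes. The difference averaged 5.39 percentage points (exact sign-flip p = 0.03125, higher in 6 of 6 libraries). The whole coding sequences of the 561 genes also had more purines than those of the others, with medians of 55.9% and 52.9%, and more glutamate and lysine codons (GAA, GAG, AAA and AAG), with medians of 17.1% and 13.2%. Their transcripts were longer and had more exons, with medians of 5191 and 3660.5 bases and of 16 and 8 exons. The part of exon number in the choice of genes was not tested. Across the 561 genes, Spearman's correlation with the mean peak number was 0.535 for the number of exons, 0.409 for coding length and 0.199 for coding purine content, a description across genes, which are not independent replicates and share the same 6 libraries.

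**Figure D4:**
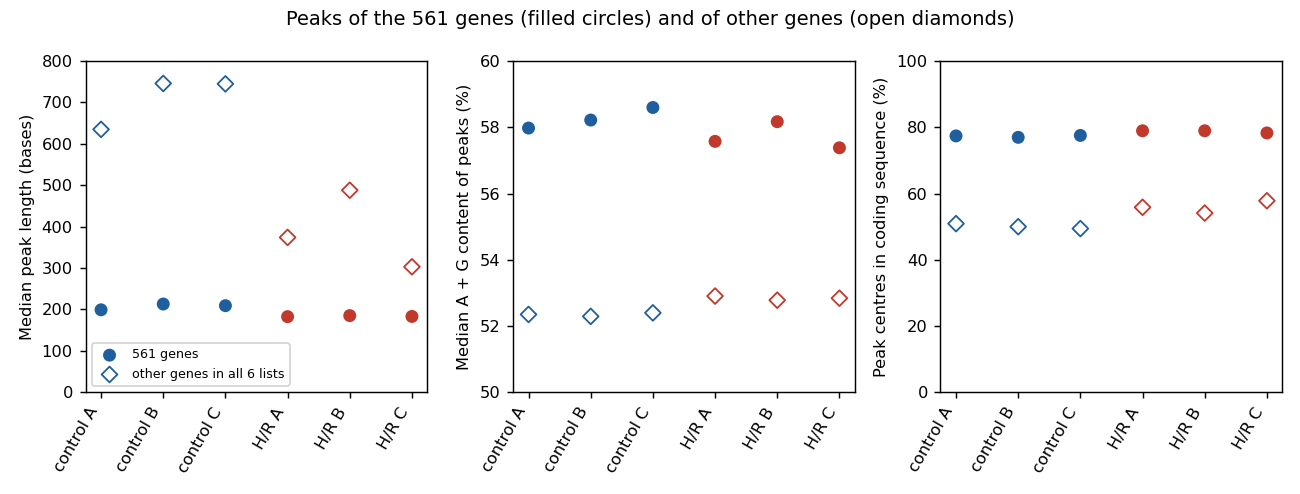
Median peak length, median purine (A + G) content of peaks and share of peak centres in coding sequence (vertical axes, the purine axis from 50% to 60%) in each of the 6 libraries, for the 561 genes (filled circles) and the other genes called in all 6 lists (open diamonds), control in blue and H/R in red. In each library the 561 genes had shorter peaks, more purines and a larger coding share.

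Within the 561 genes, exons with a peak were compared with exons of the same gene without one, again chosen after seeing the data. In the 490 to 511 genes that had both kinds in a library, exons with a peak had 3.06 to 3.82 percentage points more purines (median over genes) and were 74.7 to 90.0 bases longer. Each held in 6 of 6 libraries (exact sign-flip p = 0.03125, also after Benjamini-Hochberg adjustment over 4 features). GC content was higher by 1.03 to 1.28 percentage points and DRACH density by 0.515 to 1.14 per kb, with the same p. In the other genes called in all lists all 4 contrasts went the same way, with means over libraries of 1.64 percentage points in purines, 131.6 bases in length, 1.44 percentage points in GC and 0.873 DRACH matches per kb, against 3.39, 82.6, 1.16 and 0.936 in the 561 genes. The difference between the 2 sets of genes had an adjusted exact sign-flip p of 0.0625 for purines and GC, 0.167 for length and 0.469 for DRACH density. Of exons with under 45% purines, 11.6% ± 1.75 held a peak for control and 20.2% ± 4.30 for H/R, and of exons with at least 65%, 45.3% ± 3.37 and 54.6% ± 1.19 (SD, n = 3 each). Of exons of 300 bases or more, 72.1% ± 5.14 and 82.8% ± 2.21 held a peak, and of exons under 75 bases 11.7% ± 2.07 and 19.6% ± 1.95 (SD, n = 3 each). The 1446 exons called in all 6 lists had a median length of 168 bases and 61.7% purines, the 5546 called in no list 124 bases and 54.5%, and the 184 found in every H/R but no control list 138 bases and 57.5%. At least 1 DRACH match was found on the transcript strand in 96.1% of the exons called in all lists and in 91.5% of those called in none. The coding sequence as a whole held 61.8% purines in Ktn1, 62.4% in Cep290, 63.7% in Eif5b and 59.7% in Cgnl1. In Eif5b, exons called in all lists had a median purine content of 74.7% and exons called in none 57.3%, and in Rock1 these values were 68.5% and 56.25%. Pcnt showed 58.4% and 58.3%, and Tnrc18 53.2% and 54.1%.

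**Figure D5:**
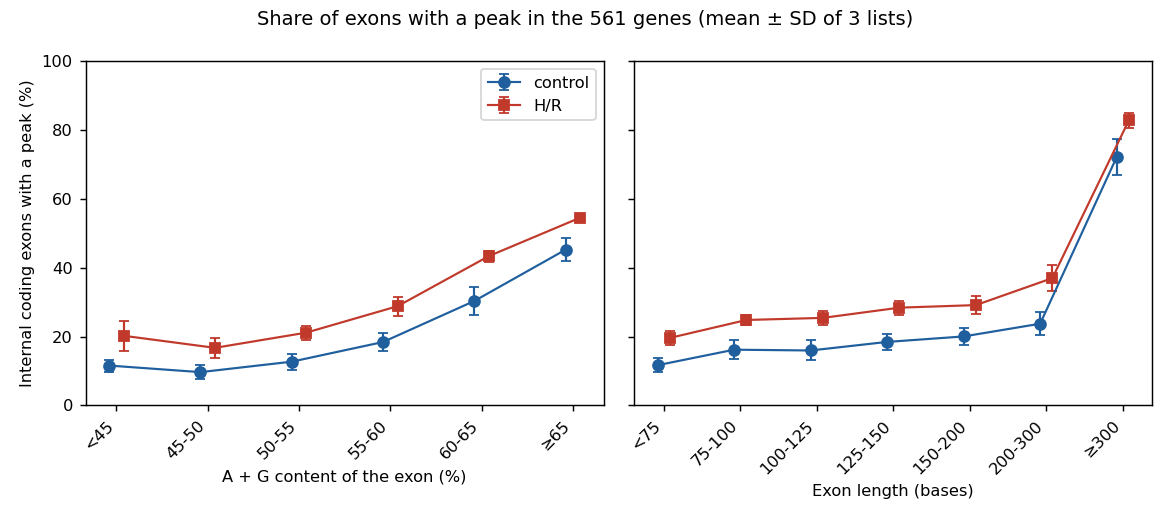
Percentage of internal coding exons of the 561 genes with a peak (vertical axis, 0 to 100%) by purine content of the exon (left) and by exon length (right), as mean and SD of 3 control (blue) and 3 H/R (red) lists. In exons with at least 65% purines 45.3% held a peak in the control and 54.6% in the H/R group, and in exons of 300 bases or more 72.1% and 82.8%.

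Between the groups, peaks of the 561 genes were shorter in H/R lists, at 207 ± 7.21 bases in the control and 183.5 ± 1.32 in the H/R group, and their fold enrichment was lower, at 30.5 ± 5.72 and 14.2 ± 3.72 (SD, n = 3 each, exact permutation p = 0.1 each). In the other genes called in all lists peak length went from 708.7 to 388.3 bases and fold enrichment from 29.2 to 13.2, a difference of -15.98 beside -16.3 in the 561 genes. The p score was higher in H/R lists, at 391 ± 124 and 796 ± 78.0 (exact permutation p = 0.1, SD, n = 3 each). Between 0 and 5 member peaks per list had a deposited false discovery rate of 5% or less, and its median over them was 46.15% to 100% by list. Peaks covered 41.4% ± 3.72 of the exonic bases of these genes in the control and 48.4% ± 1.05 under H/R (SD, n = 3 each, exact permutation p = 0.1). The covered share grows with peak number, which chose the genes, and with lists of equal length the difference was 0.188 percentage points (exact permutation p = 0.5). The share in coding sequence was 77.3% ± 0.298 and 78.7% ± 0.375, and that in the 3'UTR 8.11% ± 0.533 and 6.62% ± 0.248 (SD, n = 3 each, exact permutation p = 0.1 each, 0.25 after Benjamini-Hochberg adjustment over 5 classes). These 2 differences shrank to 0.105 and -0.616 percentage points with each base of a peak counted, and to 0.971 and -0.605 with lists of equal length. In the other genes the coding share differed by 5.82 and the 3'UTR share by -5.92 percentage points, beside 1.43 and -1.48 in the 561 genes. Shifts in the same direction were thus found outside the 561 genes. The other classes moved by at most 0.102 percentage points (adjusted exact permutation p from 0.875 to 1). DRACH density was 21.70 and 21.64 per kb in the 2 groups (exact permutation p = 0.1). Under equal list lengths, or with peaks of 10-fold enrichment and above, the difference in length turned to 7.67 and 3.17 bases, whereas the lower fold enrichment of H/R peaks remained at -12.97 and -11.9.

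By function, chromatin regulators were the fullest of the lists examined, with 45 of 73 called in all lists (61.6%) among the 561 genes, beside 14.1% of all genes called in all lists. Beside Smarca2 they included Baz2b, a bromodomain protein, with 12, 10 and 11 control peaks and 17, 14 and 15 H/R peaks, and Chd2, a chromodomain helicase, with 12, 10 and 11 and then 17, 14 and 13. Bptf, the largest subunit of the NURF remodeler, held 13, 9 and 8 control peaks and 16, 14 and 15 H/R peaks. Of the 45, 21 had every H/R count above every control count, beside 32.4% of the 561 genes and 18.9% of all genes called in all lists, and at equal list length 3 did, beside 4.63% and 2.39%. RNA processing and decay genes followed with 18 of 31 (58.1%), among them Zc3h18, a nuclear RNA decay adaptor with 7 peaks in each control list and 9, 8 and 10 in the H/R lists, Tnrc6b, a GW182 protein of miRNA silencing with 8, 7 and 6 and then 8, 9 and 8, and Drosha, the nuclease that crops primary miRNAs, with 9, 3 and 5 and then 8, 8 and 9. Of these 18, 5 had every H/R count above every control count and 2 at equal list length, to be read beside the same shares. The H/R counts overlapped with control counts in Tnrc6b and Drosha and not in Zc3h18.

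Centrosome and cilium genes held 9 of 16 (56.25%). All 9 (Pcnt, Cep290, Akap9, Cep350, Cdk5rap2, Cep164, Cntrl, Cep250 and Cep97) had every H/R count above every control count, beside 32.4% of the 561 genes and 18.9% of all. At equal list length this was so in 1 of them (4.63% and 2.39%), and 2 had every H/R count below every control count (5.35% and 1.45%). Cep350, a centrosomal protein that binds microtubules, held 11, 9 and 8 control peaks and 16, 15 and 18 H/R peaks.

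Cell division genes held 7 of 20, led by the condensin subunit Smc2 with 8, 5 and 3 control peaks and 9, 11 and 12 H/R peaks, and the cohesin subunit Smc3 with 7, 6 and 5 and then 9, 7 and 7. Mki67, the proliferation marker Ki-67, held 4 peaks in each control list and 6, 6 and 7 in the H/R lists. Cytoskeletal and adhesion scaffolds held 6 of 18, among them Dst, the dystrophin-related Utrn with 5, 5 and 6 and then 17, 6 and 19 peaks, and the spectraplakin Macf1 with 6 in each control list and 14, 9 and 16 in the H/R lists. The H/R counts of Utrn touched the control counts, and those of Macf1 did not. Of the m6A machinery itself, 2 of 10 genes were included, the writer subunit Zc3h13 with 12, 9 and 9 control peaks and 11, 13 and 13 H/R peaks, and the nuclear reader Ythdc1 with 5 in each control list and 5, 6 and 5 in the H/R lists. Both overlapped between the groups.

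The remaining lists held shares from 0 to 25.0%, against 14.1% of all genes called in all lists. DNA repair held 3 of 21, with Rad50 of the MRN complex at 11, 10 and 10 control peaks and 12 in each H/R list. Wnt, Notch and Hedgehog signalling held 3 of 17, with the Wnt coreceptor Lrp6 at 5, 5 and 3 and then 10, 7 and 8 peaks. Growth factor and mTOR signalling held 3 of 14, with Sos1, which activates Ras, at 4, 4 and 5 and then 8 in each H/R list, and kinesins held 3 of 15. The hypoxia response held 1 of 7, Vegfa, the endothelial growth factor, with 3 peaks in each control list and 4, 3 and 4 in the H/R lists. The extracellular matrix held 1 of 4 (Lamc1, the laminin gamma chain), ubiquitin ligases and deubiquitinases 2 of 21, and BTB zinc finger genes 1 of 30. C2H2 zinc finger genes, many of which encode their fingers in a single long last exon, held 12 of 152 (7.89%), and protocadherins 0 of 9. Genes picked by a solute carrier symbol held 1 of 51, Slc4a1ap, which encodes an adaptor protein and not a carrier. These shares carry no test, and the part of exon number in them was not tested.

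The Gene Ontology terms deposited with the peaks gave other shares than the lists for several functions. Of the genes called in all lists, 15 of 34 with the term chromatin remodeling (44.1%), 18 of 54 with spliceosomal complex (33.3%), 41 of 126 with chromatin modification (32.5%), 30 of 93 with RNA splicing (32.3%) and 15 of 49 with cilium (30.6%) were among the 561. The term centrosome held 29 of 144 (20.1%), cell division 22 of 113 (19.5%) and DNA repair 27 of 116 (23.3%), so that the first 2 were lower and the last higher than in the lists, which held 56.25%, 35% and 14.3%. For genes of the mitochondrion this was 22 of 320 (6.88%), and for integral components of membranes 47 of 587 (8.01%), beside 14.1% of all genes called in all lists.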

How the data were processed

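The 6 lists of mRNA peaks were used, 3 control and 3 H/R, each from an immunoprecipitate against its input. Per the labels and the study's methods, the authors trimmed reads with cutadapt (version 1.9.3), aligned them with HISAT2 (version 2.0.4) to mm10, called peaks per library with MACS (version not given in the sources used here), screened exonic peaks by an in-house program and pooled no replicates. The deposited score is 10 times the -log10 of the MACS p-value, the deposited fold enrichment is the ratio to the local background, and a false discovery rate is deposited in percent. The lists give no read numbers, so no interval that needs depth could be given.

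Genes, lists and tests were chosen with earlier results of these data known. Peaks were counted per gene symbol and list. Each gene was given 1 transcript model (RefSeq or GENCODE vM21, GRCm38), the most often listed transcript with a coding model, or in 2 of the 561 genes one of the same symbol, and 96.8% of member peaks lay on it. Near-identical copies such as Mfap1a and Mfap1b cannot be told apart with certainty. The class of a peak was decided by its centre, where a centre within 100 bases of a start or stop codon went to that codon's window before any other class. Groups were compared over libraries by two-sided exact permutation tests (3 against 3, smallest p 0.1), and members with other genes by exact sign-flip tests over 6 libraries, with Benjamini-Hochberg adjustment at 0.05. The genes named are the 12 with the highest mean count, the 8 with the largest difference without overlap, the 6 with the smallest difference, and up to 4 of each gene list. One gene that this rule names is not reported here, and it is counted in all totals. Acbd3, Bptf, the other centrosome genes, and the genes named for their H/R-only regions were named after their values were seen, and the limits of 300 bases and identical ends for printed sequences, the purine and exon measures and the blocks were added after seeing the data. Alternatives were peaks within 100 bases joined, lists of equal length, a fold of at least 10, a p score of at least 100, and leaving out each list. The counting code was run on simulated lists over 10030 genes, and 200 of 200 planted genes were recovered with 0 others. Planted genes were given 3 or more peaks in every list and each other gene fewer than 3 in some list. This outcome was therefore fixed in advance, and it checks the code and not the choice of genes in real data. Python 3.11.15, pandas 2.3.3, numpy 2.4.6, pysam 0.24.0 and matplotlib 3.10.9 were used. The lncRNA and circRNA lists were not used here.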

Additional observations from a re-analysis of the deposited data

How the results depend on the processing

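No paired analysis was possible because the lists carry the letters A to C, which no label ties to the replicate numbers. The number of genes with 3 or more peaks in every list was 365 with lists of equal length and 183 with touching peaks joined into blocks, and it was 1332, 281 and 147 with a minimum of 2, 4 and 5 peaks. Genes with every H/R count above every control count fell from 182 to 24 (26 with the 561 genes kept) with lists of equal length, to 14 (14) with peaks of 10-fold enrichment or more, and to 57 with blocks. With the 561 genes kept, 10-fold enrichment left 2.50% above and 15 genes (2.67%) below, beside 3.09% and 1.15% of all genes called in all lists so filtered. With blocks, 7 genes lay below, and no share over all genes was computed. A p score of at least 100 gave 134 genes above (201 with the 561 kept, 35.8%), beside 19.1% of all, and 0 below, beside 0.0628%. The difference in peaks per gene was 1.91, and 0.107 (-0.115 with the genes kept) with equal length, 0.0156 (-0.179) with a fold of at least 10, 1.87 (1.96) with a p score of at least 100 and 0.509 with blocks. A fold of 10 lay nearer the median of H/R than of control lists, so that it does not treat the groups evenly. H/R-only regions numbered 225, and 27 with equal length and 31 with a fold of at least 10, where 32 were found in the reverse direction. The difference in length turned from -23.5 to 7.67 and 3.17 bases, that in spacing from -149 to 0.0833 with a fold of at least 10 and to 1.5 with regions called in all lists (mostly the same regions in every list, so close to 0 by construction), and that in exonic bases covered from 6.98 to -1.49 percentage points with a fold of at least 10. DRACH density turned to 0.0279 per kb with equal length, the 5'UTR share to -0.213 points with equal length, the stop codon window to -0.0717 with equal length and -0.0899 with each base counted, the start codon window to 0.793 with a fold of at least 10, 0.102 with a p score of at least 100 and 0.225 with each base counted, and coding sequence to -1.53 with a fold of at least 10. The higher fold enrichment of members against other genes had an exact sign-flip p of 0.125 with equal length, at 0.719. The cause of these changes was not tested.

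Leaving out each library gave 562 to 729 genes, 202 to 311 genes with every H/R count above every control count (311 with control A left out and 289 with H/R B left out), 261 to 467 H/R-only regions (467 and 454 with the same lists left out), and 1.64 to 2.23 peaks per gene. The 5'UTR difference ranged from -0.168 to 0.165 points (-0.0742 without control A, -0.168 without H/R C), and that of the start codon window from -0.215 to 0.0240 (0.0240 without control B). With 5 libraries the smallest sign-flip p is 0.0625, so members against other genes could not pass 0.05. The differences stayed in direction, with ranges of -399.9 to -316.7 bases in length, 1.07 to 1.28 in fold enrichment, 145 to 187 in p score, 1.25 to 1.30 DRACH matches per kb, -2.84 to -2.77 points in GC, 24.4 to 25.9 points in coding share, -14.3 to -13.0 in 3'UTR share, -4.28 to -3.90 in the start codon window and 5.23 to 5.57 in purines. For exons with against without a peak the ranges were 3.31 to 3.46 points in purines, 81.2 to 84.2 bases, 0.895 to 1.02 DRACH matches per kb and 1.14 to 1.19 points in GC.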
